A study of Mus musculus with 9 samples.

Results

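Molybdenum cofactor synthesis and the enzymes that carry the cofactor were followed through 8 genes, picked by exact gene symbol in the brown adipose tissue (BAT) tables of 24356 symbols each. Mocs1, Mocs2, Mocs3 and Gphn build the cofactor, Mocos modifies it, and Xdh, Aox1 and Suox encode enzymes that need it. All 8 genes had an FPKM (fragments per kilobase of transcript and fragments sequenced) above 0 in all 9 libraries, as did 14675 genes in all, and these 14675 are the genes tested. The study asked how loss of growth hormone releasing hormone (GHRH) changes BAT, by RNA sequencing of GHRH-KO mice (2 females and 2 males) and their littermate WT controls (3 females and 2 males). All mice were of a mixed C57BL6 and 129SV background, ate chow freely, were untreated and shared the same housing temperature. Each library came from its own mouse, and ages are not given in the sources used here.

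The molybdenum cofactor is a pterin whose dithiolene group holds the metal. MOCS1 turns GTP into a cyclic pterin in mitochondria with the help of iron-sulfur clusters, MOCS2 (whose gene encodes the small and the large subunit of molybdopterin synthase) adds sulfur that MOCS3 supplies, and gephyrin, the product of Gphn, inserts molybdenum. Gephyrin also anchors glycine and GABA-A receptors at inhibitory synapses. MOCOS adds a terminal sulfur that xanthine dehydrogenase (Xdh) and aldehyde oxidase (Aox1) need and sulfite oxidase (Suox) does not. Xanthine dehydrogenase makes uric acid at the end of purine breakdown, aldehyde oxidase acts on aldehydes such as retinal and on N-heterocycles, and sulfite oxidase turns sulfite from cysteine breakdown into sulfate.

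The targeted gene ran against the genotype labels. Every one of the 5 libraries labelled WT had Ghrh listed at 0. The females labelled KO had 0.846 and 0.233 FPKM and the males labelled KO 0.799 and 0.470 FPKM. Whether the labels were exchanged or the targeted allele leaves a transcript was not tested. Every direction given here therefore rests on labels that Ghrh does not bear out, and KO and WT below name the labels only. Igf1, whose transcription growth hormone raises, was at 0.713 and 0.892 FPKM in females and 2.46 and 1.28 FPKM in males labelled KO, against 5.66, 4.75 and 2.68 FPKM in females and 2.13 and 8.80 FPKM in males labelled WT. The groups overlapped, and its averaged log2 difference of -1.84 (95% interval -2.88 to -0.79) did not pass (limma adjusted p 0.0661). The paper also reports IGF-I as higher in WT animals, short of its own threshold. KO male 1 stood apart from the others. Its Spearman correlation with the other libraries was 0.924 to 0.934, against 0.958 to 0.991 among the other 8, and its 7 lymphocyte markers summed to 156 FPKM against 1.02 to 2.33 elsewhere. The 9 brown adipocyte markers summed to 5304 to 6999 FPKM in libraries labelled KO and 5071 to 6695 in those labelled WT, with Ucp1 at 1357 to 2992 FPKM in every library, so that the tissue carried its defining transcripts. The 10 skeletal muscle markers summed to 2131 to 9171 FPKM in libraries labelled KO and to 330.5 to 1781 in those labelled WT, without overlap. Low values gave a depth of 0.914 to 1.14 relative to WT female 1, so depth differed little between libraries.

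The 8 genes lie on 7 chromosomes. In GRCm38 with the GENCODE M21 annotation, Mocs1 is at chr17:49428362-49455435 and Mocs2 at chr13:114818236-114832275, both on the plus strand. Mocs3 has a single exon, at chr2:168230622-168232594 (plus strand). The targeted gene Ghrh is on the same chromosome, at chr2:157329497-157347506 (minus strand), and any effect of this linkage was not tested. Gphn spans 458 kb at chr12:78226379-78684772 (plus strand). Xdh is at chr17:73883895-73950196 (minus strand), Aox1 at chr1:58029931-58106413 (plus strand) and Suox at chr10:128669894-128674073 (minus strand). Of the 50-base stretches in Xdh transcripts, 9.6% also occur in transcripts of other genes, Ppp2r5a among them, and 2.58% of those of Gphn lie in the antisense gene Gm48226. A single read from such a stretch cannot be placed by its own sequence alone. Reads were paired, and how many were affected was not measured. For the other 6 genes at most 0.85% of the stretches were shared.

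Promoters are shown for Mocs1, Mocs2 and Gphn, since their transcripts had the same order of KO and WT libraries within each sex. The RefSeq promoter table (GRCm38.p6; 250 bases before to 50 after the start) held 6 of the 8 genes. Capitals mark GGGCGG (the GC box) or CCAAT, read on both strands. The windows are chr17:49428114-49428413 for Mocs1, chr13:114817987-114818286 for Mocs2 and chr12:78226405-78226704 for Gphn, all on the plus strand. The Gphn window follows a RefSeq start and begins downstream of the GENCODE start at 78226379, so all of it lies inside the gene as annotated there.
Mocs1: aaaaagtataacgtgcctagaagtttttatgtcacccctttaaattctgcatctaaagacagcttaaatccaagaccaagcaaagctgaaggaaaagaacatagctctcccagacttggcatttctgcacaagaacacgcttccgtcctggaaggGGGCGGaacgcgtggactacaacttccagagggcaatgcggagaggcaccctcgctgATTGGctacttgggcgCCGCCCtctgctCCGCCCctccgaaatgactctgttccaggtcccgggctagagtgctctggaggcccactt
Mocs2: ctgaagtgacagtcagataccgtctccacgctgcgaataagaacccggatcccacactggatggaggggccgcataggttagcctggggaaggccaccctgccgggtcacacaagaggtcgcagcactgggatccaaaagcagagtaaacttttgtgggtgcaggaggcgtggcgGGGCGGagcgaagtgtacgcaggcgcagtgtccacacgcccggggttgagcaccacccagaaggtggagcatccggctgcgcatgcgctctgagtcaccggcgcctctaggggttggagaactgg
Gphn: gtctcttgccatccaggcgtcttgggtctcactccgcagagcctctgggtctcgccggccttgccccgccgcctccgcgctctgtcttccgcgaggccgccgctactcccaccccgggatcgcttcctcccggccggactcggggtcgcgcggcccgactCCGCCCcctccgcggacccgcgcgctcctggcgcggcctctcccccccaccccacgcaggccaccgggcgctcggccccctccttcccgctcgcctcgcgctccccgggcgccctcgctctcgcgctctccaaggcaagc
The GC box occurred 3 times in the Mocs1 window and once in each of the other two, and 35.7% of 32851 mouse promoter windows of this length hold it. CCAAT was found once, in Mocs1, and is held by 37.4% of windows. TTCNNNGAA, the core letters bound by the growth hormone-activated factor STAT5, was in none of the 6 windows and is in 8.3% of all windows. These matches describe the letters of the windows and say nothing on binding. The Gphn window had a GC content of 77.0%, the Mocs2 window 62.3% and the Mocs1 window 52.7%, beside a median of 52.7% over all windows.

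FPKM is scaled to transcript length, so levels can be set side by side. Averaged over the 9 libraries, Mocs2 had the highest level of the 8 at 31.3 FPKM, above 88.6% of the genes tested, and it was above Suox in 9 of 9 libraries. Suox (20.4 FPKM) and Xdh (18.8 FPKM) did not keep their order, with Suox higher in 6 of 9 libraries. Xdh was above Mocs1 (10.1 FPKM) in all 9. Mocs1, Gphn (9.30 FPKM) and Aox1 (8.86 FPKM) were close, with Mocs1 above Gphn in 8 libraries and Gphn above Aox1 in 7. Mocs3 (4.11 FPKM) and Mocos (2.68 FPKM) were the lowest and kept that order in all 9 libraries. Across libraries the 4 synthesis genes and Suox varied least, with coefficients of variation of 10.1% to 12.4%, against 20.1% for Mocos, 23.9% for Aox1 and 33.0% for Xdh.

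**Figure D1:**
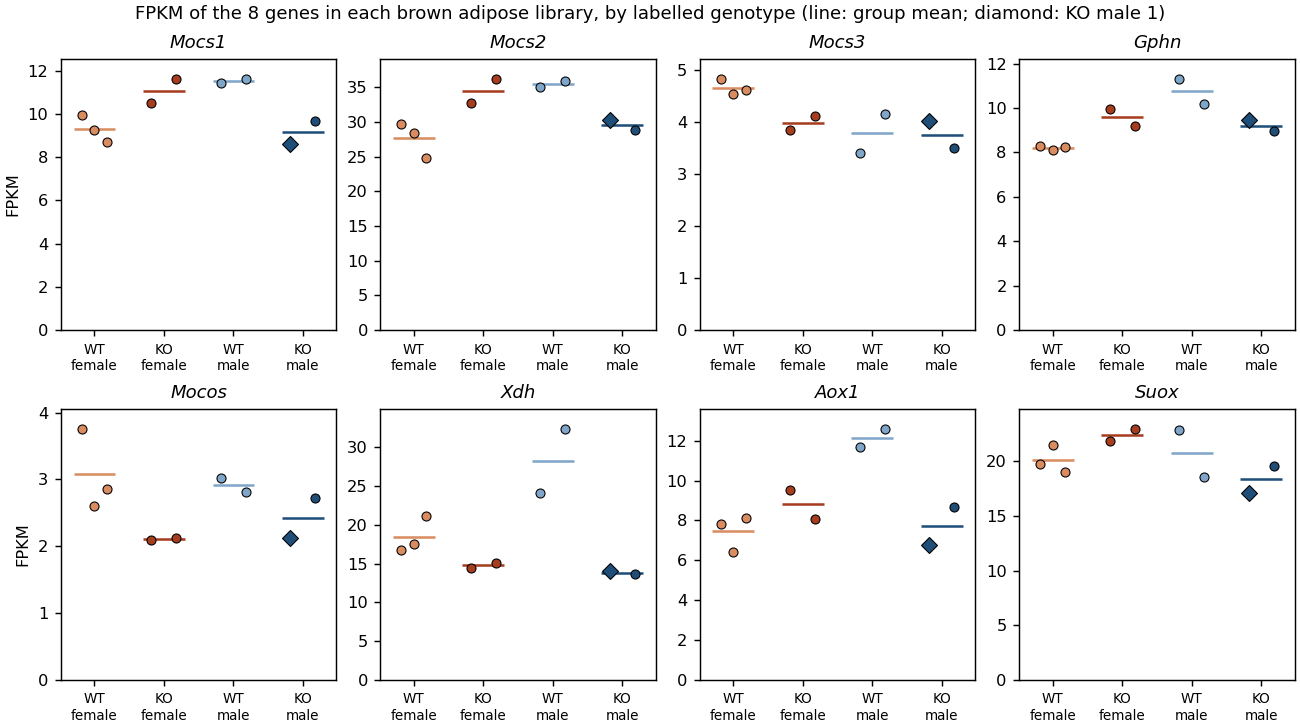
FPKM (vertical axes, starting at 0) of the 8 genes in each library, with points for single mice, lines for group means and a diamond for KO male 1. Xdh had 13.6 to 15.1 FPKM in the 4 libraries labelled KO against 16.8 to 32.4 in the 5 labelled WT, while for Mocs1, Mocs2 and Gphn the order of the genotype labels was opposite in females and males.

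Xdh was lower in libraries labelled KO than in those labelled WT. It measured 14.4 and 15.1 FPKM in females and 14.0 and 13.6 FPKM in males labelled KO, and 16.8, 17.5 and 21.1 FPKM in females and 24.1 and 32.4 FPKM in males labelled WT. The groups did not overlap, which held in this direction for 6.04% of the genes tested, and WT male 2 was the highest library. With the sexes averaged the level fell by 37.1% (log2 difference -0.67, SE 0.11, limma adjusted p 0.0347, n = 4 and 5). A two-sided exact permutation test that ignored sex, uncorrected over the 8 genes, gave p 0.0238, where 0.00794 is the smallest possible. Xdh was the only gene of the 8 past an adjusted p of 0.05, beside 3.60% of all genes tested (2.17% lower in libraries labelled KO). Within females the difference was -0.32 (95% interval -0.67 to 0.032) and within males -1.02 (-1.40 to -0.64), and neither passed (limma adjusted p 0.434 and 0.0705, the latter 0.021 to 0.29 over the other settings). In bulk tissue, fewer cells of a type and less RNA per cell cannot be told apart.

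The call on Xdh held without KO male 1 (-0.68, adjusted p 0.0447) but not under most other settings. Over 19 other settings the difference ran from -0.77 to -0.56 and the adjusted p from 0.012 to 0.134, under 0.05 in 8. It was lost when any single WT female, either KO female or WT male 2 was left out (adjusted p 0.07 to 0.134), and under median centring of the libraries it was 0.0559. Most markers of white adipocytes and endothelial cells also had a negative averaged difference. So did 62.5% of all genes tested, and limma called 2.17% of all genes lower in libraries labelled KO. The 8 white adipocyte markers measured (Tcf21 listed at 0 in all libraries) summed to 35.1 to 92.3 FPKM in libraries labelled KO. In those labelled WT the sum was 81.3 to 325 FPKM. The groups overlapped, with KO female 2 (92.3 FPKM) above WT female 2, WT female 3 and WT male 1. Retn made up 287 of the 325 FPKM in WT female 1 and 268 of the 324 in WT male 2. Of 6 tested, 5 were negative (median -1.07) and 1 was called lower. The 6 endothelial markers summed to 95.7 to 150.0 FPKM in libraries labelled KO and at most 165 in those labelled WT. KO female 1 (150.0 FPKM) was above every library labelled WT but WT male 2. All 6 were negative (median -0.33) and 0 were called. All 6 fibroblast markers had a negative averaged difference (median -0.59), with Col1a1 (-1.10, limma adjusted p 0.0453) and Col3a1 (-1.03, 0.0418) called lower, and their sum was 125 to 211 FPKM against 152 to 275. All 7 macrophage markers were negative too (median -0.47), with Cd14 called (-1.57, limma adjusted p 0.0347), and their sum was 26.2 to 35.6 FPKM in the libraries labelled KO other than KO male 1 (406 FPKM) against 44.0 to 106. Their part in the Xdh result was not tested.

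Mocos, which charges Xdh and Aox1 with sulfur, is on chromosome 18 (24653691 to 24701575, plus strand). It stood at 2.09 and 2.12 FPKM in females and 2.12 and 2.73 FPKM in males labelled KO, and at 3.76, 2.61 and 2.86 FPKM in females and 3.02 and 2.81 FPKM in males labelled WT. Only KO male 2 reached the range of the libraries labelled WT. The averaged log2 difference was -0.40 (SE 0.15, 95% interval -0.75 to -0.058), with a limma adjusted p of 0.179 (0.0992 to 0.44 over the other settings) and a two-sided exact permutation p of 0.0238. Without KO male 1 it was -0.31. It did not pass the adjusted threshold.

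Aox1 was high in WT males. It measured 11.7 and 12.6 FPKM there, against 7.83, 6.39 and 8.12 FPKM in WT females, 9.54 and 8.08 FPKM for the KO females, and 6.74 and 8.66 FPKM for the KO males, so that both WT males lay above all other libraries. Averaged over the sexes the log2 difference between the labels was -0.21 (95% interval -0.49 to 0.066, limma adjusted p 0.382), and -0.12 without KO male 1. Within females it was 0.25 (-0.13 to 0.62) and within males -0.67 (-1.08 to -0.26), and neither passed (adjusted p 0.575 and 0.118). Without KO male 1 the male difference was -0.49. Without KO male 2, which leaves KO male 1 as the only KO male, it was -0.85.

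Suox measured 21.9 and 23.0 FPKM for the KO females, 17.1 and 19.6 FPKM for the KO males, 19.8, 21.5 and 19.0 FPKM in WT females and 22.9 and 18.6 FPKM in WT males. The groups overlapped, and the averaged log2 difference was -0.0031 (95% interval -0.21 to 0.21, limma adjusted p 0.992). Of the 3 enzymes it was the one with the narrowest range, with the highest library 1.34 times the lowest, against 1.98 times for Aox1 and 2.39 times for Xdh.

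Among the synthesis genes no difference passed with the sexes averaged, and 3 of the 4 had opposite signs in females and males. Mocs1 measured 9.95, 9.23 and 8.69 FPKM in WT females and 10.5 and 11.6 FPKM in KO females, but 11.4 and 11.6 FPKM in WT males and 8.62 and 9.68 FPKM in KO males. KO libraries were thus all above WT libraries in females and all below them in males. The log2 difference was 0.25 (95% interval -0.0026 to 0.50) in females, -0.33 (-0.61 to -0.0545) in males and -0.041 (-0.23 to 0.15) on average (limma adjusted p 0.396, 0.218 and 0.854).

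Mocs2 had the same order of KO and WT libraries within each sex, at a higher level. It stood at 29.7, 28.5 and 24.8 FPKM in WT females and 32.7 and 36.2 FPKM in KO females, and at 35.0 and 35.9 FPKM in WT males and 30.3 and 28.9 FPKM in KO males. The log2 difference was 0.32 (95% interval 0.084 to 0.55) in females, -0.26 (-0.52 to -0.0031) in males and 0.029 (-0.15 to 0.20) on average (limma adjusted p 0.272, 0.297 and 0.889).

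Gphn, the last step, again had KO females at 9.96 and 9.21 FPKM above WT females at 8.29, 8.11 and 8.23 FPKM, and KO males at 9.46 and 8.96 FPKM below WT males at 11.3 and 10.2 FPKM. Its log2 difference was 0.22 (95% interval -0.0038 to 0.45) in females, -0.22 (-0.47 to 0.025) in males and -0.00017 (-0.17 to 0.17) on average (limma adjusted p 0.399, 0.356 and 0.999). The 3 WT females had an SD of only 0.0895 FPKM.

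Mocs3, the sulfur donor of Mocs2, did not share this order. It measured 4.82, 4.54 and 4.61 FPKM in WT females, 3.84 and 4.12 FPKM in KO females, 3.41 and 4.16 FPKM in WT males and 4.01 and 3.49 FPKM in KO males. KO females lay below all WT females, and the males overlapped. The log2 difference was -0.23 (95% interval -0.55 to 0.097) in females and -0.0082 (-0.36 to 0.35) in males (limma adjusted p 0.542 and 0.989), and -0.12 (-0.36 to 0.12) on average (0.608). The averaged value was -0.19 without WT male 1 and -0.045 without WT male 2.

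**Figure D2:**
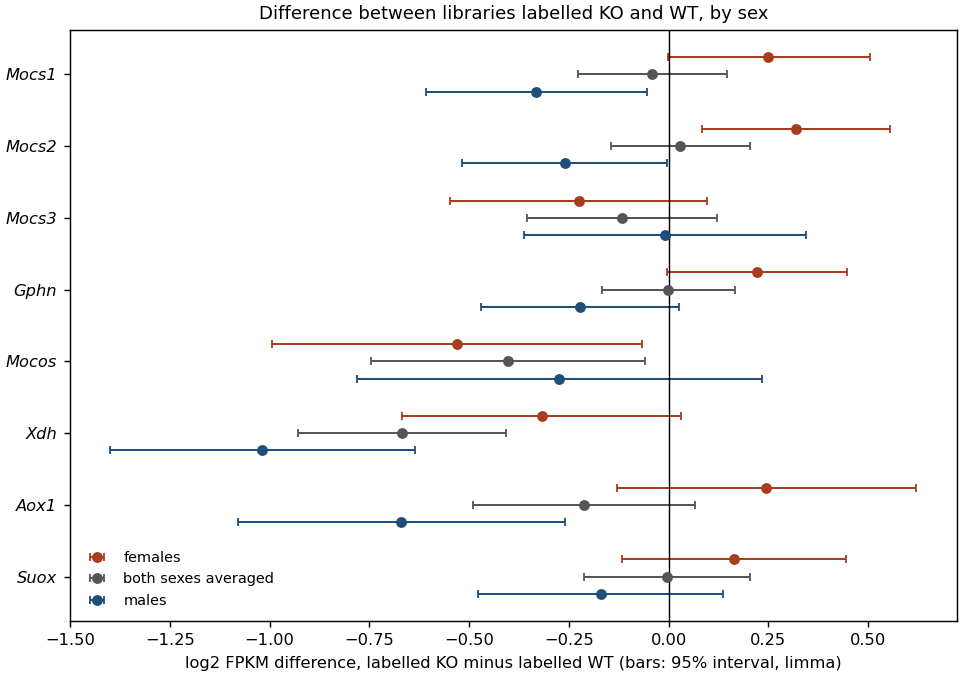
Log2 FPKM difference between libraries labelled KO and WT for each gene (horizontal axis), in females, in males and averaged, with 95% intervals from limma. Mocs1, Mocs2, Gphn, Aox1 and Suox lie right of 0 in females and left of it in males, and the averaged interval lies below 0 for Xdh (-0.93 to -0.41) and Mocos (-0.75 to -0.058).

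Read over the list, no gene of the 8 passed limma's adjusted threshold within females (0.0204% of genes tested did) or within males (0.0136%). At an unadjusted limma p under 0.05 there were 2 of 8 in females and 4 of 8 in males, against 12.7% and 16.6% of all genes, and the ordinary linear model with adjustment also called 0 in each sex. By the threshold of the study's methods, an unadjusted linear model p under 0.01, 0 of 8 passed for the genotype term taken as the difference within females (3.43% of genes), whereas Xdh alone passed within males (p 0.00223, 5.29% of genes) and averaged over the sexes (p 0.00256, 7.54% of genes). The median log2 difference of the 8 genes was 0.19 in females and -0.27 in males, beside -0.072 and -0.083 over all genes tested. Averaged, it was -0.079 beside -0.074 for all genes.

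The difference between the sexes was tested as the interaction, the male difference between the labels minus the female one. It was -0.58 for Mocs1 (SE 0.16), -0.58 for Mocs2 (SE 0.15), -0.44 for Gphn (SE 0.14), -0.70 for Xdh (SE 0.22), -0.92 for Aox1 (SE 0.24) and -0.33 for Suox (SE 0.18), but 0.22 for Mocs3 (SE 0.21) and 0.26 for Mocos (SE 0.30). Limma called none of the 8 (adjusted p 0.624 to 0.838) and 0% of all genes. At an unadjusted p under 0.05 it gave 5 of 8, against 7.01% of all genes. The linear model with an unadjusted p under 0.01 gave 3 of 8, Mocs1, Mocs2 and Gphn, all negative, against 1.66% of all genes (1.44% negative), and 0 with adjustment. KO females above all WT females together with KO males below both WT males held for these same 3 genes and for 2.58% of the genes tested. The 8 genes were chosen with earlier results of these data known, so the shares here describe the list and do not test it.

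The signs of the interaction held without KO male 1. It was then -0.50 for Mocs1, -0.61 for Mocs2, -0.48 for Gphn, -0.73 for Xdh, -0.74 for Aox1, -0.24 for Suox, 0.12 for Mocs3 and 0.44 for Mocos, each with the sign it had before. The 3 smallest interactions moved by the largest factors when single libraries were left out: Mocos was 0.0736 without KO male 2 and 0.10 without WT female 1, Mocs3 was 0.0729 without WT male 1 and 0.36 without WT male 2, and Suox was -0.18 without WT male 1. Without KO male 2 the interaction of Aox1 was -1.10, but KO male 1, the library that stood apart, is then the only KO male. KO male 2 alone was also below both WT males for Mocs1, Mocs2 and Gphn, as it was for 60.8% of all genes tested, and the joint order with the females held for 4.82% of genes. The linear model count was less steady. Of the 3 genes only Gphn passed p under 0.01 without KO male 1, only Mocs1 without KO male 2 or KO female 1, only Mocs2 without WT female 3, only Gphn without KO female 2 or either WT male, and none without WT female 2 or when the libraries were centred on their medians or quantile normalized. Median centring moved all genes by 0.11 (log2) in females, 0.00755 in males and -0.10 for the interaction, and all 8 interaction signs stood under it.

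**Figure D3:**
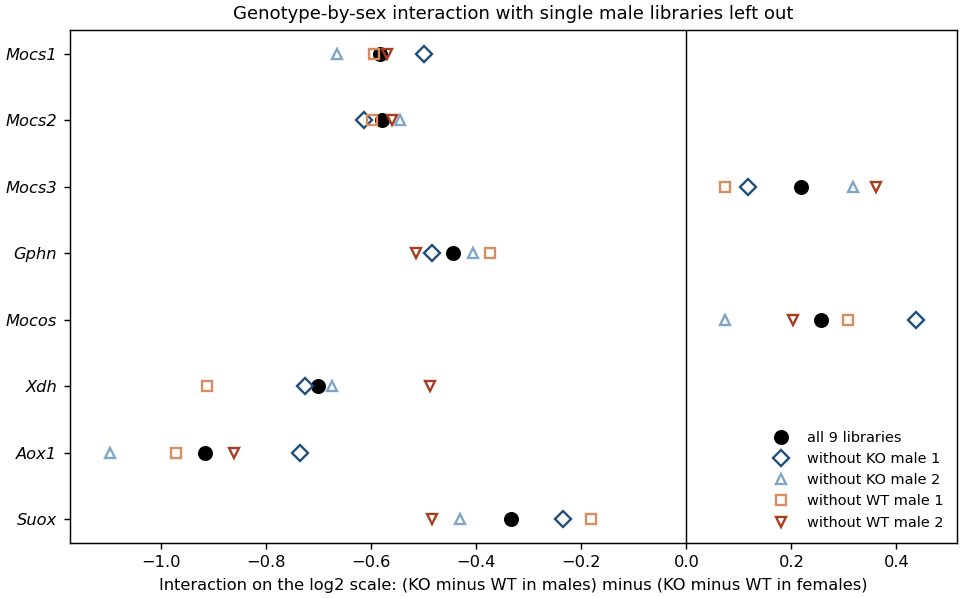
Interaction on the log2 scale (horizontal axis) for each gene from all 9 libraries and with each male library left out. Every marker stays on its gene's side of 0, and leaving out KO male 1 (diamonds) moved Aox1 from -0.92 to -0.74 and Mocs2 from -0.58 to -0.61.

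The sexes were also compared within the libraries labelled WT, which share those libraries with the comparisons above. WT males were above all WT females for 5 of the 8 genes, Mocs1, Mocs2, Gphn, Xdh and Aox1, as for 13.4% of the genes tested. The log2 difference, male minus female, was 0.72 for Aox1 (SE 0.16), 0.60 for Xdh (SE 0.15), 0.39 for Gphn (SE 0.097), 0.36 for Mocs2 (SE 0.10) and 0.31 for Mocs1 (SE 0.11). Limma called 0 of 8 (adjusted p 0.335 to 0.587 for these 5) and 0.00681% of all genes, with 5 of 8 at an unadjusted p under 0.05 (7.22% of all genes). The adjusted linear model also called 0. At its unadjusted p under 0.01, 2 of 8 passed, Gphn (linear model p 0.00109) and Aox1 (0.0081). The share of all genes past that threshold was not counted. Among libraries labelled KO the same 5 differences were -0.057 to -0.27, 0 of 8 passed an unadjusted limma p under 0.05 (10.6% of all genes) and the linear model called 0 after adjustment.

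Other genes of these pathways were read from lists, which were also chosen with earlier results of these data known. Of 10 further genes for molybdenum enzymes and their partners, 8 were found under their symbols and 6 tested. The 2 amidoxime reducing molybdoenzymes could not be matched, since symbols of this form stand as dates in the tables. Limma called 0 of the 6 in the averaged contrast (3.60% of all genes), with 0 at an unadjusted p under 0.05 (20.2% of all genes). Aox3, a second aldehyde oxidase gene, was at 0.0393 to 0.162 FPKM, and Aox2 and Aox4 were at 0 in some libraries and at most 0.0179 FPKM, so Aox1 had nearly all the aldehyde oxidase transcript measured. Cyb5r3, the reductase that passes electrons to the amidoxime reducing enzymes, stood at 36.5 ± 2.61 FPKM in libraries labelled KO and 41.1 ± 3.48 in those labelled WT (SD, n = 4 and 5; limma adjusted p 0.326). Ctu1, which acts in tRNA thiolation, was at 1.50 ± 0.216 and 1.77 ± 0.236 FPKM (adjusted p 0.497).

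The iron-sulfur cluster genes, 16 of 16 tested, had 0 called on average by limma and 3 at an unadjusted p under 0.05, a share near the 20.2% of all genes. Isca2, which helps assemble the clusters in mitochondria, was at 85.0 ± 8.83 FPKM in libraries labelled KO and 103 ± 6.69 in those labelled WT (SD, n = 4 and 5; log2 difference -0.28, limma adjusted p 0.087). The interaction was negative for 16 of 16, with a median of -0.20, against 51.3% of all genes and a median of -0.014. Without KO male 1 it was still negative for 16 of 16 (median -0.175), while for all genes the share rose to 65.9% and the median went to -0.13. Limma called 0 of the 16 for the interaction (0% of all genes), with 2 at an unadjusted p under 0.05 (7.01% of all genes). Since the list was chosen with earlier results known, the shared sign is a description and not a test.

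Among sulfur amino acid and sulfide genes, 18 of 21 were tested, and 3 were higher and 1 lower in libraries labelled KO by limma, beside 3.60% of all genes called in either direction, and 11 were at an unadjusted p under 0.05, beside 20.2% of all genes. Got1, an aspartate aminotransferase that can make the sulfite precursor from cysteine sulfinate, rose in libraries labelled KO, to 28.3 ± 4.88 FPKM from 10.7 ± 2.22 in those labelled WT (SD, n = 4 and 5; log2 difference 1.45, SE 0.19, limma adjusted p 0.0235, range 0.00631 to 0.104). Got2, its mitochondrial partner, stood at 41.8 ± 10.8 and 24.1 ± 4.24 FPKM (0.80, SE 0.17, adjusted p 0.0453, range 0.0337 to 0.16). Tstd3, of the sulfurtransferase family, was at 13.9 ± 0.711 and 10.1 ± 0.993 FPKM (0.46, SE 0.091, adjusted p 0.0426, range 0.0319 to 0.17). Fmo1, a flavin monooxygenase that oxidizes sulfur compounds, was lower, at 161 ± 15.6 and 219 ± 65.8 FPKM (-0.47, SE 0.081, adjusted p 0.0352, range 0.0265 to 0.324), and its WT males at 282 and 299 FPKM stood above all other libraries, which lay at 147 to 180.4. Leaving out any single female took all 4 above 0.05 (adjusted p 0.0523 to 0.17). Without KO male 1 Got1 still passed (adjusted p 0.0352) and Got2, Tstd3 and Fmo1 did not (0.0685, 0.0592 and 0.0514).

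Of the purine breakdown and salvage genes 19 of 23 were tested and 1 was called (3.60% of all genes), with 4 at an unadjusted p under 0.05 (20.2% of all genes). Ampd1, the AMP deaminase of skeletal muscle, was higher in libraries labelled KO, at 18.4 and 8.37 FPKM in females and 33.2 and 16.5 FPKM in males, against 6.62, 4.48 and 3.59 FPKM in females and 5.68 and 1.34 FPKM in males labelled WT (log2 difference 2.24, SE 0.48, limma adjusted p 0.0498, range 0.0137 to 0.177; 0.0752 without KO male 1). Its highest library, KO male 1, was also the highest in skeletal muscle markers, at 9171 FPKM, and its lowest, WT male 2, the lowest, at 330.5 FPKM. Of the 10 skeletal muscle markers, 4 were called higher in libraries labelled KO, beside 210 of all 14675 genes tested. Got1 and Got2 had KO male 1 and WT male 2 as their highest and lowest libraries too. The part of muscle transcripts in these results was not tested.

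**Figure D4:**
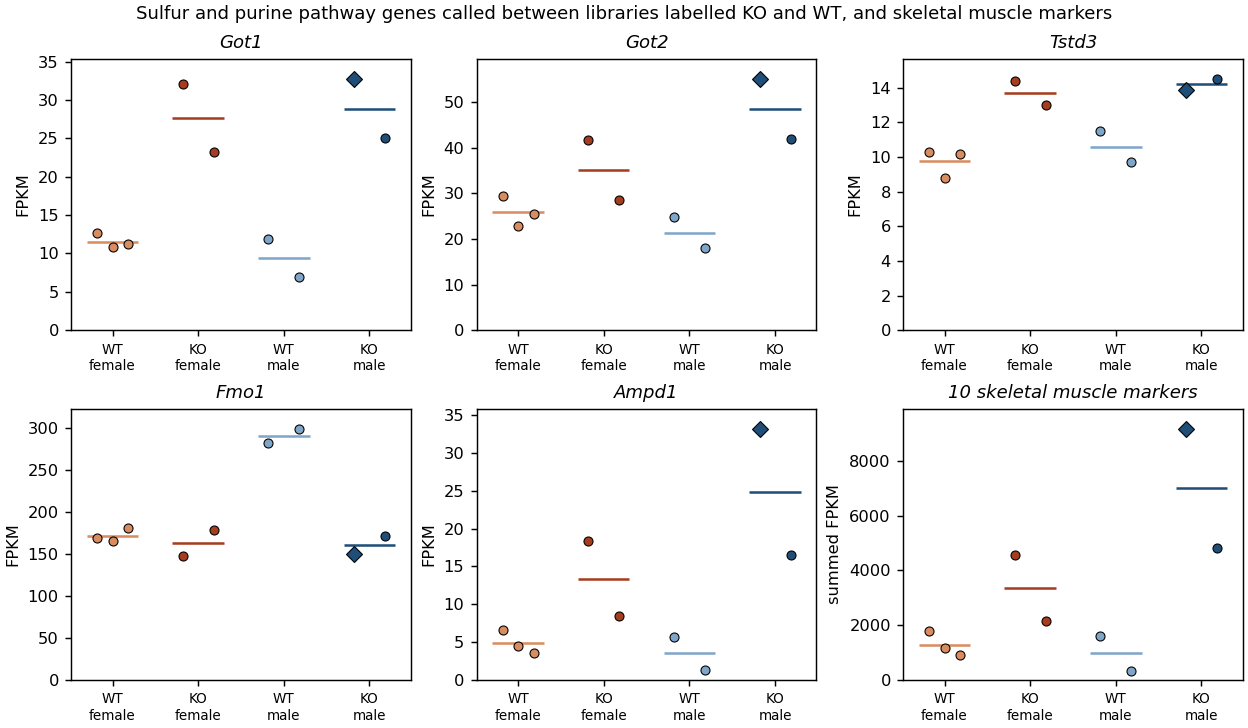
FPKM of the 5 genes called from the sulfur and purine lists and the summed FPKM of 10 skeletal muscle markers (vertical axes, starting at 0), with points for single mice, lines for group means and a diamond for KO male 1. The marker sum was 2131 to 9171 FPKM in libraries labelled KO and 330.5 to 1781 in those labelled WT, and KO male 1 was the highest library for it and for Ampd1, Got1 and Got2.

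Retinoid, aldehyde and nicotinamide genes around aldehyde oxidase (15 of 15 tested) had 0 called by limma, with 3 at an unadjusted p under 0.05 (20.2% of all genes). Nnmt, whose methylated product aldehyde oxidase can oxidize, was at 13.1 ± 4.73 FPKM in libraries labelled KO and 24.7 ± 6.38 in those labelled WT (SD, n = 4 and 5; log2 difference -0.93, limma adjusted p 0.0544, range 0.00625 to 0.187). Dhrs3, a retinal reductase, was at 46.6 ± 2.86 and 64.3 ± 11.7 FPKM (-0.44, adjusted p 0.124, range 0.046 to 0.306). The inhibitory synapse genes that meet gephyrin in neurons were mostly near 0: 5 of 16 were above 0 in every library, and Glra2, Glra3 and Gabra5 were listed at 0 throughout. Of the 5 tested, limma called 0 (3.60% of all genes), with 1 at an unadjusted p under 0.05 (20.2% of all genes). Gabra3, a GABA-A receptor subunit, was at 0.219 ± 0.195 and 0.402 ± 0.0969 FPKM (adjusted p 0.108, range 0.0447 to 0.314), and Gabra2 at 0.295 ± 0.0495 and 0.460 ± 0.257 FPKM (adjusted p 0.568).

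As a description of likeness, each of the 8 genes was set against the 10877 genes with a mean of at least 1 FPKM by Pearson's r of log2 FPKM over the same 9 libraries. Closest to Mocs1 were Bcap31 (0.961), Nfs1 (0.952) and Slc27a1 (0.944). Nfs1 is the cysteine desulfurase that starts iron-sulfur clusters and hands sulfur to MOCS3. Mocs2 was most like Gatad1 (0.952), Rexo2 (0.924) and the proline dehydrogenase gene Prodh (0.920), and Gphn most like Zfp930 (0.951), Itpripl1 (0.951) and Mtmr14 (0.916). Mocs3 followed Alyref (0.957), Aif1l (0.956) and Snx1 (0.954), and Mocos followed Tmem79 (0.972), Tmem97 (0.958) and Ano10 (0.956). For Xdh the nearest were Diap2 (0.973) and Rps6kb1 (0.972), for Aox1 Prpf8 (0.953), Fry (0.945) and Tep1 (0.942), and for Suox Sdhd (0.915), of respiratory complex II, Mdh1 (0.911), the cytosolic malate dehydrogenase, and Gabarapl2 (0.909). The 9 points share depth and tissue makeup. Without KO male 1 these correlations were 0.859 to 0.980. The genes were picked as the most alike of 10877 on these same libraries, so neither set of values tests the likeness.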

How the data were processed

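BAT RNA was sequenced from 9 mice (poly(A)-selected, paired-end 50 bp reads). The authors' methods and processing notes name bcl2fastq 1.8.4, TopHat2 2.0.11, mm10 and Bowtie, and the deposited values are FPKM per gene symbol, with no fragment counts, so absolute depth is unknown. Whether reads were counted by strand is not given in the sources used here. Genes listed at 0 FPKM in any library were left out, as in the study's methods, and log2 FPKM was used without pseudocount.

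The main test was limma 3.58.1 (R 4.3.3) with a mean for each of the 4 groups of genotype and sex, a mean-variance trend and Benjamini-Hochberg adjustment over 14675 genes at 0.05. The ordinary linear model of the methods (p under 0.01) and two-sided exact permutation tests stood beside it. Libraries were numbered in accession order within a group, and p-values measure the spread between single mice. On simulated libraries with 200 of 14675 genes shifted by 1 (log2), limma recovered 50.5%, and 4.72% of its calls were wrong. The simulated noise was independent between genes and had no library set apart like KO male 1, so these shares need not hold for the real libraries.

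The members and all lists were chosen with earlier results of these data known. Named were the 8 genes, Ghrh, from each pathway list the genes with an adjusted p under 0.05 (or the 2 with the lowest p), and the 3 genes most like each member. Some genes that this rule names are not reported here. The comparison of the sexes within a label, the counts of ordered groups, the promoter and shared-sequence checks and the alternatives for pathway genes were added after values had been seen. Ucp1, Igf1, Aox2 to Aox4 and Ppp2r5a were named outside the rule. Of the lists, hepatocyte markers summed to at most 4.86 FPKM, neuron or Schwann cell markers to 4.15 to 32.4, fibroblast markers to 125 to 275, macrophage markers to 26.2 to 106 (406 in KO male 1) and proliferation markers to 0.148 to 1.02 (5.87 in KO male 1). Dates stand in place of 25 gene symbols, none of them a member, and the genes of the amidoxime reducing enzymes may be among them. Figures used matplotlib 3.10.9, and other steps Python 3.11.15 with pandas 2.3.3, numpy 2.4.6 and scipy 1.17.1. Serum metabolomics is not analysed here.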

Additional observations from a re-analysis of the deposited data

Results flagged for a closer look

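Each of the 8 genes was checked for a library far from the others of its label, in the 4 libraries labelled KO and the 5 labelled WT. The highest library labelled KO for Mocos, KO male 2 at 2.73 FPKM, stood apart from the others, at 2.09, 2.12 and 2.12 FPKM. It was 1 of 16 groups checked, and chance alone flags about 1 in 20. The library is of similar depth to the others (0.979 relative to WT female 1), and the value is near the 2.61 to 3.76 FPKM of the libraries labelled WT.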

How the results depend on the processing

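The averaged difference of Xdh, Mocos, Mocs3 and Aox1 kept its direction under all 19 alternatives, and the interaction of each of the 8 genes under all 18. Near 0, signs turned: with median centring Mocs1 became 0.018, Gphn 0.058 and Suox 0.055, with quantile normalization Gphn 0.034 and Suox 0.045, and with genotype alone Gphn 0.039 and Suox 0.00081. When single libraries were left out, the averaged value ran from -0.082 to 0.00105 for Mocs1, -0.0082 to 0.066 for Mocs2, -0.035 to 0.035 for Gphn and -0.079 to 0.073 for Suox. The 1 averaged call among the 8 genes (Xdh) was 0 without a filter on zeros (which also added a pseudocount of 0.1), with median centring, without the mean-variance trend, with genotype alone and with the adjusted linear model, and 0 to 1 when single libraries were left out. Genes called over all moved from 529 (39.7% higher) to 170 without that filter and with the pseudocount (508 with the pseudocount alone), 222 with median centring (58.6% higher), 34 without the trend and 19 with the adjusted linear model, stood at 444 with quantile normalization (51.4% higher), and ran from 8 to 1105 when single libraries were left out. Leaving out single WT females gave 0 to 2 of the 8 genes for the interaction term of the linear model. Of all genes tested, 1% to 1.29% then passed with a negative sign. The interaction term gave 0 of the 8 under median centring and 0 under quantile normalization, beside 1% and 1.01% of all genes with a negative sign. In a group of 2, leaving out 1 library leaves 1, and calls that use this group then rest on it. Leaving out 1 library also brought Isca2 (KO male 2, adjusted p 0.0436), Nnmt and Dhrs3 (WT male 1, 0.00625 and 0.046) and Gabra3 (KO male 1, 0.0447) under 0.05. The cause of these changes was not tested. With 1 library left in a group, that library is assumed to vary like the others. No paired analysis was possible because the labels give no shared replicate numbers. Absolute depth is unknown, so no counting error is given beside the FPKM.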
